A study of Mus musculus with 7 samples.

Results

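Polyamine metabolism was followed in stressed mouse embryonic fibroblasts (MEFs) through 10 genes chosen by symbol, of 49382 genes in the expression table. Each of the 10 symbols stood on a single row, and all 10 genes were among the 12909 that averaged 2 TPM or more over the 7 libraries. The genes were Odc1, Amd1, Srm and Sms for synthesis, Oaz1, Oaz2 and Azin1 for the antizymes and their inhibitor, and Sat1, Smox and Paox for acetylation and oxidation. The cells were wild-type primary fibroblasts grown out of whole embryos without head and red tissue, and the methods of the study describe a sort against CD45, CD11b and F4/80 to remove macrophages. Cells came from embryos of both sexes and are a mixed culture, not a clone. Of the 7 libraries, 1 was an untreated control. The long treatments lasted 10 hours and were medium without glucose, medium without glutamine, a hypoxia chamber with 0.1% oxygen, and 1 μM thapsigargin, which empties the calcium store of the endoplasmic reticulum (ER). The short treatments lasted 3 hours and were 10 μM sodium arsenite, called oxidative stress here, and 100 mM of added NaCl, called osmotic stress. The hour at which the control was collected is not given in the sources used here. With 1 library per condition, no difference could be set against the spread between cultures, no p-value is given, and all 6 comparisons share the same control library. In RNA of whole cultures, fewer cells that express a gene and less of its RNA per cell cannot be told apart.

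Polyamines are small positively charged molecules that bind RNA and DNA, and dividing cells need them. Ornithine decarboxylase, encoded by Odc1, makes putrescine from ornithine, spermidine synthase (Srm) adds an aminopropyl group to give spermidine, and spermine synthase (Sms) adds another to give spermine. The aminopropyl groups come from S-adenosylmethionine after its decarboxylation by the product of Amd1. Antizymes (Oaz1, Oaz2) bind ornithine decarboxylase and send it to the proteasome, and antizyme inhibitor (Azin1), a relative of ornithine decarboxylase without its activity, binds the antizymes instead. In the other direction, the acetyltransferase SSAT (Sat1) acetylates spermidine and spermine, the peroxisomal oxidase of Paox cleaves the acetylated forms, and spermine oxidase (Smox) turns spermine back into spermidine and releases hydrogen peroxide. Several of these steps are set by translation and protein turnover, which mRNA levels do not show.

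The antizyme mRNAs carry such a step in their sequence. A ribosome that reads through the start of an antizyme mRNA meets an early stop codon, and polyamines raise the share of ribosomes that shift by a base and read on. The stretches around this stop are shown because they mark what an mRNA level cannot report. They lie on the plus strand of GRCm38, in exons of annotated GENCODE M21 transcripts, at chr10:80828280-80828309 for Oaz1 and at chr9:65686257-65686286 for Oaz2. Written 5′ to 3′ with the codon before the stop and the stop itself in capitals, they differ at 2 of 30 bases.
Oaz1: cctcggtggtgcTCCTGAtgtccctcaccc
Oaz2: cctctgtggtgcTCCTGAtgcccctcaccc

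Promoter windows of the 250 bases before the RefSeq transcription start were found for 8 of the 10 genes in the RefSeq promoter sequences of GRCm38.p6, and not for Srm and Azin1. Sms and Paox have 2 windows each, from different annotated starts, which makes 10 windows. The RefSeq starts are not always those of the GENCODE genes located below. The windows of Smox, Oaz2 and Paox and the Sms window at chrX:157491369-157491618 lie inside the GENCODE gene. That of Odc1 overlaps the GENCODE start of its gene. Those of Odc1, Smox and Sat1 are shown because these genes had changes of more than 2-fold against the control. The windows are chr12:17544623-17544872 on the plus strand for Odc1, chr2:131491612-131491861 on the plus strand for Smox, and chrX:155216450-155216699 on the minus strand for Sat1. Capitals mark matches to any of 7 motifs searched on both strands.
Odc1: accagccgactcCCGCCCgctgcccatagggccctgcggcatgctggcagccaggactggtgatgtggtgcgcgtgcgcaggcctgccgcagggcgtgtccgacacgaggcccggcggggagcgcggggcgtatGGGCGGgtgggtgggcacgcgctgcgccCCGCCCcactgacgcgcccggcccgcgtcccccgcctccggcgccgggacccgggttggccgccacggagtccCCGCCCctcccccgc
Smox: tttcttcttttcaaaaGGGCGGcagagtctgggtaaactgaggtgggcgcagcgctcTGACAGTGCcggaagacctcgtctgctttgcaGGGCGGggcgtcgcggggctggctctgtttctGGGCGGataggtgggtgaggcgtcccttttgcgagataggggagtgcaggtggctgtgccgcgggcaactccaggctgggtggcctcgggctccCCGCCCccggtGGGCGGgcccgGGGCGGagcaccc
Sat1: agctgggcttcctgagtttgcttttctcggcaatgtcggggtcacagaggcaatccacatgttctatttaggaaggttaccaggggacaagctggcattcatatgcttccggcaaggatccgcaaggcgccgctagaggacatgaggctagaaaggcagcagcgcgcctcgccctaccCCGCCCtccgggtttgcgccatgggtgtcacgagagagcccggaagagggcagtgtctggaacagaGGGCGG

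The capitals are GC boxes (GGGCGG or its complement), the site of Sp1, apart from 1 match in the Smox window. That match, at 193 bases before the RefSeq start, is to TGACNNNGC, the core of the antioxidant response element. GC boxes were found 4 times in the Odc1 window, 6 times in that of Smox and 2 times in that of Sat1. At least 1 GC box stood in 8 of the 10 windows, from 7 genes, and in 32.7% of all 32851 windows of this length. The Odc1 window had 80.0% G and C, against a median of 52.4% over all windows. All windows include those of genes below the expression filter, and the kept genes alone were not computed. Whether these traits differ from those of other expressed genes was therefore not tested. TGACNNNGC was present in 2 of the 10 windows, those of Smox and Oaz1, and in 10.2% of all windows. The E-box CACGTG, a site of MYC, stood in 1 of the 10 windows, the Sms window without a GC box, and in 6.02% of all windows. The hypoxia response core ACGTG, which overlaps the E-box, stood in 3 of the 10 windows, the same one of Sms and both of Paox, which overlap each other, and in 16.6% of all windows. The ER stress response element, TGATGNAA (core of the CEBP-ATF element bound by ATF4) and TGACGTCA (cyclic AMP response element) matched in none of the 10 windows, and in 0.113%, 3.45% and 1.55% of all windows. These letters describe the windows alone, and the binding of any factor was not measured. Sequence outside the windows was not searched, so a motif absent here may stand elsewhere in a gene, Odc1 included.

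Expression was deposited as TPM, the share of a library taken by a gene per length of transcript and scaled to a total of 1000000, so that levels of different genes can be compared within a library. TPM keeps no read count, and the sequencing depth is unknown. Changes are given as the difference in log2(TPM + 1) from the control library, a scale that makes the changes of weakly expressed genes look smaller, and a change past 2-fold on this scale was counted. The median change over the 12909 genes was -0.16 in oxidative stress, -0.12 in osmotic stress and within 0.1 of 0 in the other conditions. The 8 fibroblast markers (Col1a1, Col1a2, Col3a1, Pdgfra, Pdgfrb, Thy1, Vim, Fn1) had means of 30.8 to 3295 TPM over the libraries and sums of 8721 to 16202 TPM. The sums were 6.76 to 16.6 TPM for 6 macrophage markers, 2.94 to 7.31 TPM for 4 endothelial markers and 3.88 to 11.6 TPM for 4 epithelial markers, and none of these markers was at 0 in all libraries. Of the genes listed as responding to each treatment, those past 2-fold in their library were counted. Upward these were 4 of 4 in hypoxia, ER stress and oxidative stress, 3 of 4 in osmotic stress and 2 of 4 in glutamine depletion. In glucose depletion 2 of 2 were past it downward. These genes were chosen with earlier results of these data known, so the counts are a description and not a check of the treatments.

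Among the 60 changes of the 10 genes in 6 conditions, 6 went past 2-fold, all of them upward. They were those of Odc1, Srm and Smox in ER stress, Smox in glutamine depletion and in oxidative stress, and Sat1 in osmotic stress. In ER stress 3 of the 10 genes rose and 0 fell, where 8.60% of all kept genes rose and 11.0% fell. Glutamine depletion and oxidative stress each raised 1 of 10, where 3.21% and 3.94% of the kept genes rose, and lowered 0, where 3.21% and 4.85% fell. Osmotic stress raised 1 of 10 and lowered 0, where 3.08% rose and 8.76% fell. In glucose depletion and hypoxia none of the 10 went past 2-fold in either direction, where 1.83% and 3.57% of the kept genes rose and 2.41% and 2.64% fell. All 10 genes are protein-coding, and the 11300 kept genes annotated as protein-coding had lower shares. Of these, 7.10% rose and 9.80% fell in ER stress, 1.89% and 1.86% in glutamine depletion, 1.41% and 7.35% in osmotic stress, 1.79% and 3.46% in oxidative stress, 0.442% and 0.602% in glucose depletion, and 1.93% and 1.02% in hypoxia.

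**Figure D1:**
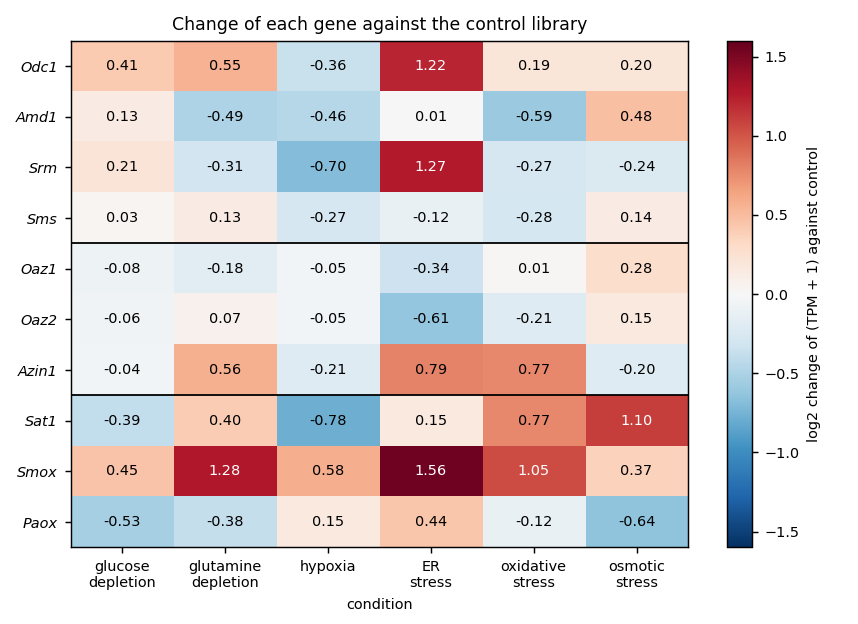
Log2 change of (TPM + 1) against the control library for each of the 10 genes (rows, grouped by role with black lines) in each of the 6 conditions (columns, 1 library each), with red for higher and blue for lower. The 6 changes above 1 are all in Odc1, Srm, Smox and Sat1, and no cell is below -1.

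At 1.5-fold, 14 of the 60 changes were counted. In ER stress these were 4 genes up and 1 down (19.0% and 21.3% of all kept genes), in oxidative stress 3 up and 1 down (7.27% and 16.2%), and in osmotic stress 1 up and 1 down (6.56% and 19.5%). In glutamine depletion 1 was up and 0 down (7.47% and 10.6%), in hypoxia 0 up and 2 down (7.23% and 8.10%), and in glucose depletion 0 either way (3.47% and 6.23%). Sms and Oaz1 stayed within 1.5-fold of the control in every condition. The median change of the 10 genes was 0.30 in ER stress, where that of all kept genes was 0.00, and -0.24 in hypoxia, where that of all kept genes was -0.05. It was -0.01 in glucose depletion, 0.10 in glutamine depletion, -0.05 in oxidative stress and 0.18 in osmotic stress, against -0.02, -0.09, -0.16 and -0.12 for all kept genes.

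**Figure D2:**
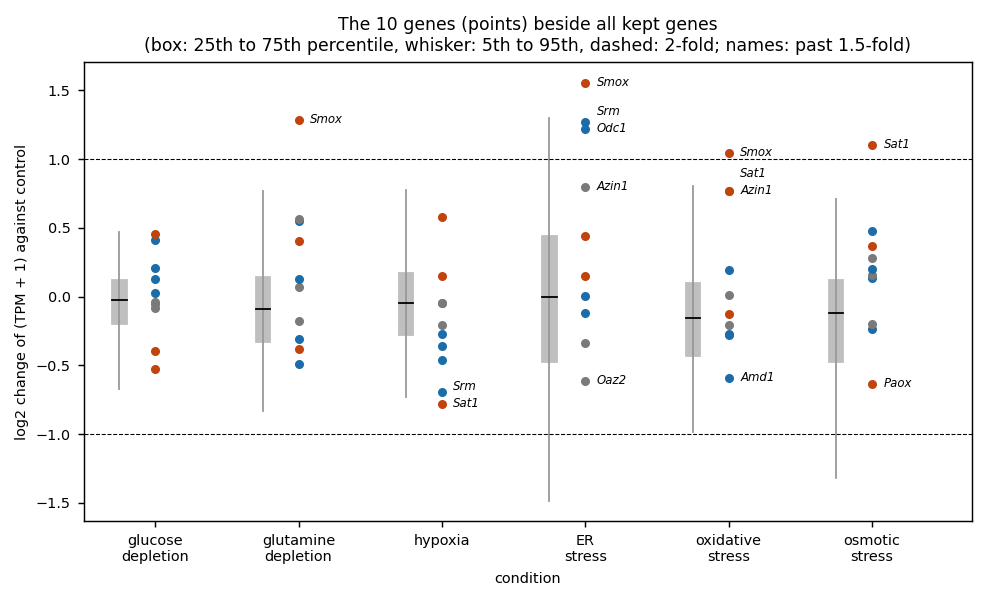
Log2 change of (TPM + 1) against the control for the 10 genes (coloured points, blue for synthesis, grey for antizymes and inhibitor, orange for acetylation and oxidation) beside all 12909 kept genes (grey box from the 25th to the 75th percentile, line from the 5th to the 95th, median in black) in each condition. Genes past 1.5-fold are named and dashed lines mark 2-fold; Smox is the uppermost point in 5 conditions and Sat1 in osmotic stress.

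Of the genes for synthesis, Odc1 (ENSMUSG00000011179, chr12:17544794-17551505, plus strand of GRCm38) encodes the enzyme of the first and usually limiting step. Odc1 was at 174 TPM in the control, 232 in glucose depletion, 255 in glutamine depletion, 135 in hypoxia, 405 in ER stress, 199 in oxidative stress and 199.7 in osmotic stress. ER stress was the highest library and hypoxia the lowest, and hypoxia alone was below the control. The change in ER stress was 1.22, or 2.33 times the TPM of the control, and 5.72% of all kept genes had a change at least as high in that library. In glutamine and glucose depletion the changes were 0.55 and 0.41, short of 1.5-fold, with 8.13% and 6.14% of the kept genes at least as high.

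Srm (ENSMUSG00000006442, chr4:148591503-148594993, plus strand of GRCm38), which encodes spermidine synthase, was more than 2-fold above the control in ER stress, as was Odc1. Srm was at 199 TPM in the control, 231 in glucose depletion, 161 in glutamine depletion, 123 in hypoxia, 483 in ER stress, 165 in oxidative stress and 169 in osmotic stress. The highest library was ER stress, with a change of 1.27 and 2.42 times the TPM of the control, and the next highest, glucose depletion, was at less than 1.5 times the control. Hypoxia was lowest, with a change of -0.70, and 5.53% of all kept genes were at least as low there.

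Amd1 (ENSMUSG00000075232, chr10:40287458-40302186, minus strand of GRCm38) encodes the decarboxylase that supplies aminopropyl groups. It stood at 79.7 TPM in the control, 87.2 in glucose depletion, 56.5 in glutamine depletion, 57.7 in hypoxia, 80.1 in ER stress, 52.5 in oxidative stress and 111 in osmotic stress. Its level in ER stress was that of the control (change 0.01), in the library in which Odc1 and Srm were more than 2-fold higher. The 3-hour treatments lay at opposite ends, with changes of -0.59 in oxidative stress and 0.48 in osmotic stress. Of the 31-base words in the transcripts of Amd1, 82.8% also occur in transcripts of other genes, 81.9% in those of its copy Amd2. Amd2 was at 0.258 to 1.42 TPM and the pseudogene Amd-ps3 at 0 to 17.8 TPM, so the split of reads among these copies is uncertain. With both added to Amd1 the changes were -0.07 in ER stress, -0.62 in oxidative stress and 0.56 in osmotic stress.

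Sms (ENSMUSG00000071708, chrX:157443855-157492287, minus strand of GRCm38), which encodes spermine synthase, was the least abundant gene of synthesis and moved the least. It was at 17.6 TPM in the control, 18.0 in glucose depletion, 19.3 in glutamine depletion, 14.4 in hypoxia, 16.1 in ER stress, 14.3 in oxidative stress and 19.4 in osmotic stress. The highest library was 1.36 times the lowest. Srm stood at 11.3 times the TPM of Sms in the control and at 29.9 times in ER stress, and between 8.33 and 12.9 times in the other 5 libraries.

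**Figure D3:**
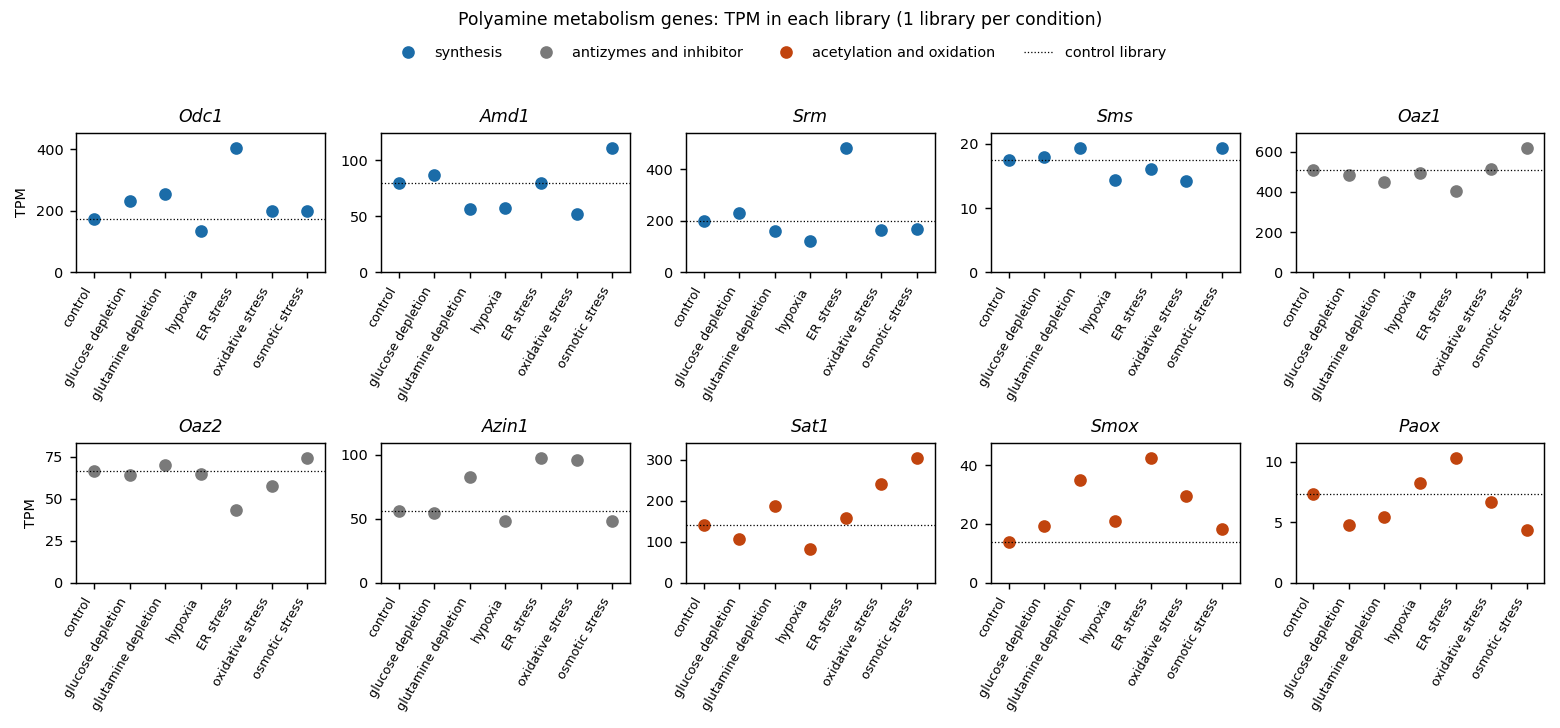
TPM (vertical axes, each from 0) of the 10 genes in the control and the 6 conditions, 1 point per library, with a dotted line at the control. Odc1 and Srm stand highest in ER stress at 405 and 483 TPM, Sat1 climbs to 304 TPM in osmotic stress, and all 6 stress libraries lie above the control for Smox.

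Both antizymes spanned less than 2-fold over the 7 libraries. Oaz1 (ENSMUSG00000035242, chr10:80826656-80829290, plus strand of GRCm38) was the most abundant of the 10 genes in 6 of the libraries, at 509 TPM in the control, 481 in glucose depletion, 449 in glutamine depletion, 493 in hypoxia, 403 in ER stress, 514 in oxidative stress and 619 in osmotic stress. In ER stress Srm and Odc1 stood above it. Oaz2 (ENSMUSG00000040652, chr9:65668001-65690300, plus strand of GRCm38), a less abundant antizyme, was at 66.7 TPM in the control, 64.1 in glucose depletion, 70.2 in glutamine depletion, 64.6 in hypoxia, 43.2 in ER stress, 57.5 in oxidative stress and 74.4 in osmotic stress. Both antizymes were lowest in ER stress, with changes of -0.34 and -0.61, and highest in osmotic stress, with 0.28 and 0.15. In ER stress 30.7% and 20.3% of all kept genes were at least as low, so both lie well within the spread of genes in that library.

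Azin1 (ENSMUSG00000037458, chr15:38487427-38519266, minus strand of GRCm38), the antizyme inhibitor, was at 55.7 TPM in the control, 54.2 in glucose depletion, 82.8 in glutamine depletion, 48.1 in hypoxia, 97.5 in ER stress, 95.6 in oxidative stress and 48.3 in osmotic stress. Glutamine depletion, ER stress and oxidative stress were the high libraries, and the other 3 conditions lay below the control. The changes were 0.79 in ER stress and 0.77 in oxidative stress, past 1.5-fold and short of 2-fold, with 12.7% and 5.31% of all kept genes at least as high. In glutamine depletion the change was 0.56. In hypoxia and osmotic stress the values were -0.21 and -0.20.

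Among the genes of acetylation and oxidation, Sat1 (ENSMUSG00000025283, chrX:155213132-155216449, minus strand of GRCm38) had the widest range, with its highest library at 3.72 times the lowest. It was at 141 TPM in the control, 107 in glucose depletion, 186 in glutamine depletion, 81.7 in hypoxia, 157 in ER stress, 241 in oxidative stress and 304 in osmotic stress. Both 3-hour treatments were above all 10-hour treatments, and hypoxia and glucose depletion were below the control. The change in osmotic stress was 1.10, or 2.16 times the TPM of the control, and 2.69% of all kept genes were at least as high. Relative to the median of all genes in that library it was 1.22. The change was 0.77 in oxidative stress (5.28% at least as high) and -0.78 in hypoxia (4.50% at least as low). Treatment time and kind of stress cannot be told apart here.

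Smox (ENSMUSG00000027333, chr2:131491496-131525922, plus strand of GRCm38), encoding spermine oxidase, was at 13.8 TPM in the control, 19.3 in glucose depletion, 35.0 in glutamine depletion, 21.1 in hypoxia, 42.5 in ER stress, 29.5 in oxidative stress and 18.1 in osmotic stress. The control was the lowest of the 7 libraries. The changes past 2-fold were 1.56 in ER stress, 1.28 in glutamine depletion and 1.05 in oxidative stress, or 3.08, 2.54 and 2.14 times the TPM of the control, and 3.52%, 2.22% and 3.72% of all kept genes were at least as high in these libraries. In hypoxia, glucose depletion and osmotic stress the changes were 0.58, 0.45 and 0.37. Against the median of the other 6 libraries in place of the control, the values were 1.04 in ER stress, 0.76 in glutamine depletion and 0.53 in oxidative stress, and -0.17, -0.36 and -0.44 in hypoxia, glucose depletion and osmotic stress. Of its 31-base words 0% occur in transcripts of other genes, so that no annotated copy shares its reads.

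Paox (ENSMUSG00000025464, chr7:140115799-140137224, plus strand of GRCm38), encoding the oxidase of acetylated polyamines, was the least abundant of the 10 genes. It was at 7.34 TPM in the control, 4.78 in glucose depletion, 5.40 in glutamine depletion, 8.25 in hypoxia, 10.3 in ER stress, 6.65 in oxidative stress and 4.36 in osmotic stress. ER stress was highest and osmotic stress lowest, with changes of 0.44 and -0.64. The annotated gene Gm19680 holds 26.2% of its 31-base words and was itself at 4.24 to 9.45 TPM. With both rows added the change in osmotic stress was -0.23 and that in ER stress 0.48. The 2 oxidases did not keep a fixed ratio, and Smox stood at 1.88 times the TPM of Paox in the control, 2.56 times in hypoxia, 6.47 times in glutamine depletion and 4.03 to 4.44 times in the other 4 libraries.

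Ratios within a library do not depend on its total. Odc1 stood at 0.341 of the TPM of Oaz1 in the control, 0.481 in glucose depletion, 0.568 in glutamine depletion, 0.274 in hypoxia, 1.01 in ER stress, 0.387 in oxidative stress and 0.323 in osmotic stress. The mRNA of the enzyme was level with that of its main antizyme in ER stress, at 2.95 times the ratio of the control. Azin1 stood at 0.0969 of the summed antizymes in the control, 0.0994 in glucose depletion, 0.160 in glutamine depletion, 0.219 in ER stress, 0.167 in oxidative stress, 0.0863 in hypoxia and 0.0697 in osmotic stress. In ER stress this was 2.26 times the control.

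Sat1 stood at 0.811 of the TPM of Odc1 in the control, 0.462 in glucose depletion, 0.731 in glutamine depletion, 0.604 in hypoxia, 0.387 in ER stress, 1.21 in oxidative stress and 1.52 in osmotic stress. The acetyltransferase mRNA was above that of ornithine decarboxylase in the 3-hour treatments and below it in the control and the 10-hour treatments. Again, treatment time and kind of stress cannot be told apart. The summed TPM of Sat1, Smox and Paox was 0.345 of that of the 4 genes of synthesis in the control, 0.231 in glucose depletion, 0.461 in glutamine depletion, 0.337 in hypoxia, 0.213 in ER stress, 0.645 in oxidative stress and 0.654 in osmotic stress. Sat1 made up most of its sum with Smox and Paox in every library, at 241 of 277 TPM in oxidative stress and 304 of 326 TPM in osmotic stress. These ratios are of mRNA, and enzyme activities and polyamines were not measured.

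**Figure D4:**
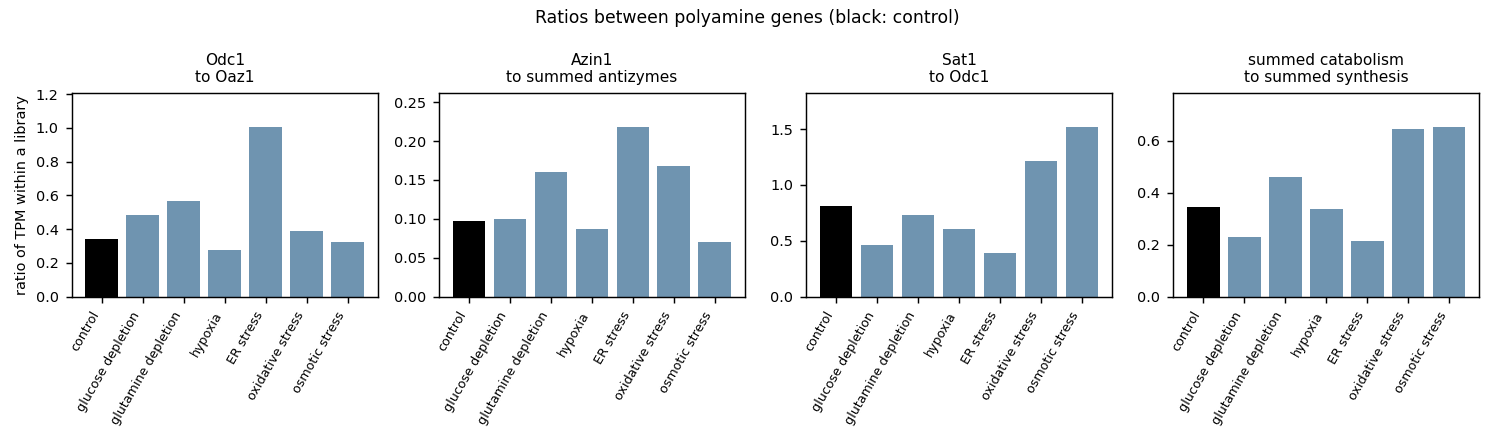
Ratios of TPM within each library (bars from 0, control in black, 1 library per bar) for Odc1 to Oaz1, Azin1 to both antizymes, Sat1 to Odc1, and the summed genes of acetylation and oxidation to the summed genes of synthesis. The first 2 ratios are highest in ER stress at 1.01 and 0.219, and the last 2 are highest in osmotic stress at 1.52 and 0.654.

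A wider list of 43 genes around the pathway was read in the same way, of which 34 passed the expression filter. The list was chosen with earlier results of these data known, so its counts are a description. In ER stress 6 of the 34 rose and 2 fell by more than 2-fold, in glutamine depletion 2 rose and 0 fell, in hypoxia 1 rose and 1 fell, in oxidative stress 1 rose and 1 fell, in osmotic stress 0 rose and 2 fell, and in glucose depletion none moved past 2-fold. As shares these were 17.6% up and 5.88% down in ER stress, beside the 8.60% and 11.0% of all kept genes, and the median change of the list was 0.22. In glutamine depletion they were 5.88% up, where 3.21% of all kept genes rose, and 0% down, where 3.21% fell. In hypoxia they were 2.94% each way, beside 3.57% up and 2.64% down, and after arsenite 2.94% each way, beside 3.94% up and 4.85% down. In osmotic stress they were 0% up and 5.88% down, beside 3.08% and 8.76%, and in glucose depletion 0% each way, beside 1.83% and 2.41%.

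In ER stress, Slc3a2, the shared heavy chain of several amino acid transporters, went from 201 TPM in the control to 1454 (change 2.85), and Slc7a1, a carrier of arginine and ornithine, from 24.8 to 85.6 (1.74). Got1, an aspartate aminotransferase that can also act in methionine salvage, went from 57.4 to 266 (2.20), and Slc7a2, a related carrier, and Aldh18a1, which makes the precursor of ornithine and proline, rose by 1.10 and 1.27. The genes that fell were Cav1, a caveolar protein linked to polyamine uptake, from 1151 to 342 TPM (-1.75), and Sat2, a relative of Sat1, from 8.62 to 2.37 TPM (-1.51). Slc7a1 was also past 2-fold in glutamine depletion, at 54.2 TPM (1.10).

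Myc encodes a transcription factor for which Odc1 is a classic target gene. It was at 56.8 TPM in the control, 68.0 in glucose depletion, 144 in glutamine depletion, 51.3 in hypoxia, 265 in ER stress, 106 in oxidative stress and 95.4 in osmotic stress. Hypoxia alone was below the control, and the changes of 2.20 in ER stress and 1.33 in glutamine depletion were past 2-fold. In oxidative and osmotic stress Myc changed by 0.89 and 0.74, and Odc1 by 0.19 and 0.20. Whether MYC acts on Odc1 here was not tested. Among the antagonists and partners of MYC, Mxi1 went from 4.64 to 27.0 TPM in hypoxia (2.31). Mnt went from 13.4 to 3.11 TPM in osmotic stress (-1.81), while Max was within 2-fold in every condition. Zfp36, which promotes the decay of mRNAs with AU-rich elements, rose by 1.38 in oxidative stress and had a change of 0.99 in glutamine depletion.

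Mat2a, the synthetase of S-adenosylmethionine, stood on 2 rows with identical values, counted once, at 61.7 TPM in the control, 49.8 in glucose depletion, 70.0 in glutamine depletion, 28.1 in hypoxia, 71.9 in ER stress, 121 in oxidative stress and 35.2 in osmotic stress. Hypoxia was past 2-fold (-1.11), and oxidative stress just short of it (0.96). Mri1, an isomerase of methionine salvage, fell by 1.11 in oxidative stress and by 1.01 in osmotic stress, to 14.4 and 15.5 TPM from 32.2 TPM. None of the 4 genes for the hypusine modification of eIF5A (Eif5a, Eif5a2, Dhps, Dohh), which uses spermidine, was past 2-fold in any condition. Their largest changes were 0.85 for Dhps in ER stress and -0.95 for Dohh in hypoxia. Both arginases, Agmat, Amd2, Oaz3, Satl1, Aoc1, Mycn and Slc12a8 did not pass the filter, and Satl1 and Aoc1 were listed at 0 in every library.

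**Figure D5:**
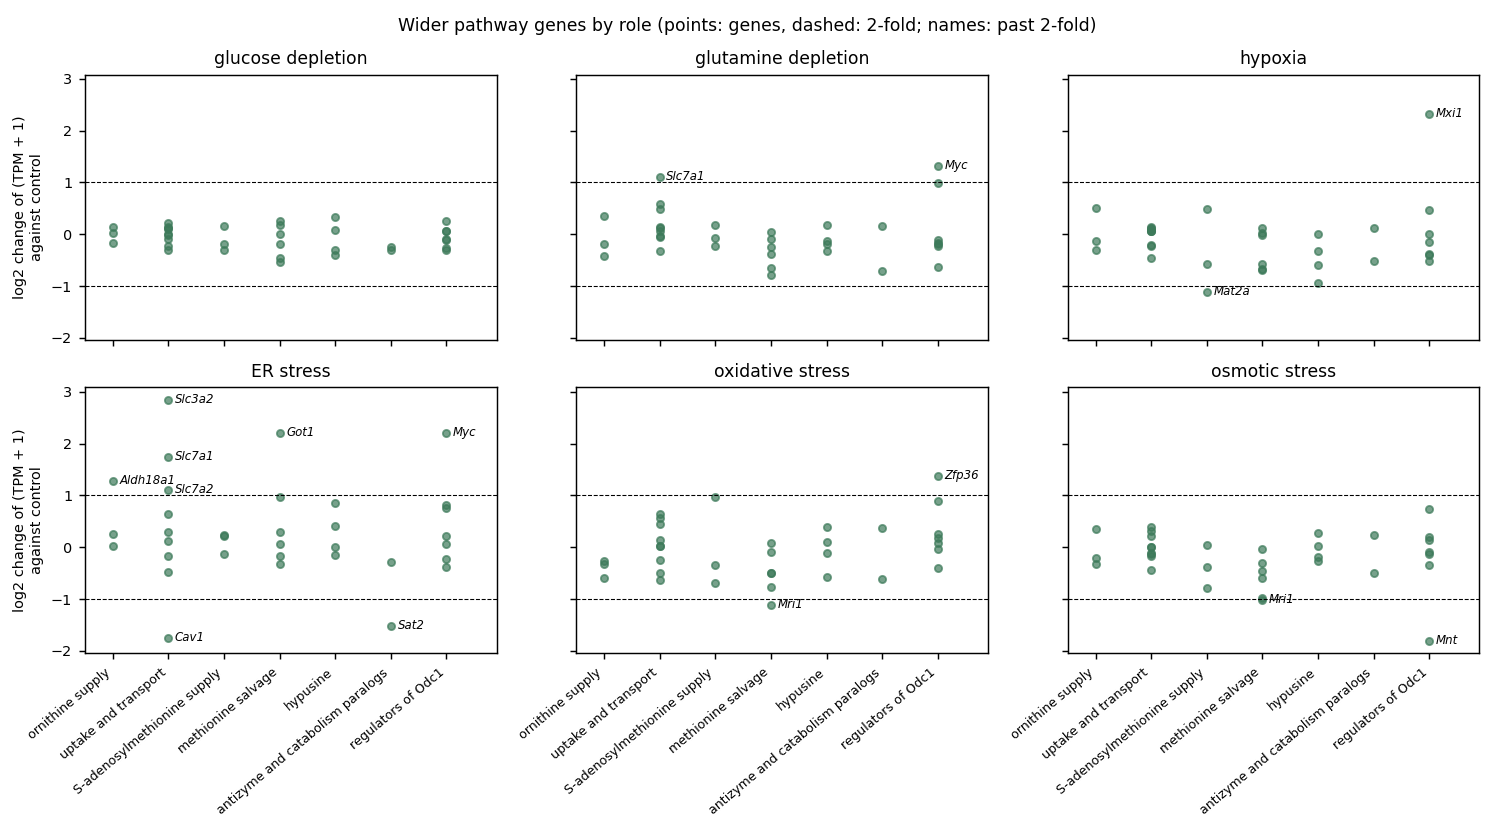
Log2 change of (TPM + 1) against the control for the 34 genes of the wider list that passed the filter, by role, with 1 panel per condition, 1 point per gene and dashed lines at 2-fold. Named genes are past 2-fold; ER stress has 8 of them and glucose depletion none.

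The genes with the course most like that of each member were sought by the root mean square difference of log2(TPM + 1), centred on each gene's mean over the 7 libraries, among the 8819 genes that averaged 10 TPM or more. Closest to Odc1 were Esf1 (0.09), Ipo7 (0.12) and Utp20 (0.13), where the SD of Odc1 itself over the libraries was 0.46. Esf1 and Utp20 act in the processing of ribosomal RNA, and Ipo7 is a nuclear import receptor. Esf1 went from 18.7 TPM in the control to 44.8 in ER stress and 14.0 in hypoxia. Among the closest to Srm (SD 0.58) were Ifrd2 (0.08) and the pseudogene Gm21092 (0.13). For Smox (SD 0.51) they were Arntl (0.16), a clock transcription factor, Mex3b (0.16) and Nup160 (0.17), and for Sat1 (SD 0.60) Tnfrsf12a, the TWEAK receptor (0.20), Abl2 (0.20), a kinase of the cytoskeleton, and Spry2 (0.23), a feedback inhibitor of ERK. Rbm18 (0.12), Ric8a (0.15) and Nt5dc3 (0.15) were closest to Azin1 (SD 0.42). Cab39l (0.11), Telo2 (0.16) and Shmt1 (0.17) were closest to Amd1 (SD 0.36), and Dcaf5 (0.08), Trim32 (0.08) and Zxdc (0.09) to Paox (SD 0.36). This likeness over 7 libraries is a description. Sms, Oaz1 and Oaz2 spanned less than 2-fold and were not used.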

How the data were processed

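RNA was purified on RNeasy columns, libraries were made by the TruSeq stranded mRNA protocol, and paired ends were sequenced on an Illumina instrument. The authors aligned the reads with Kallisto (version 0.43.1 in the submitters' processing notes) against all cDNA transcripts of GRCm38 and deposited gene-level TPM, to which every transcript of a symbol contributes. Sequencing depth is therefore unknown, and no counting interval is given.

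Here the deposited TPM were turned into log2(TPM + 1), the control was subtracted, and genes past 2-fold, the rule of the study for stress conditions, were counted among the 12909 of 49382 genes that averaged 2 TPM or more. For the wider list and the marker and treatment lists, identical rows of a symbol were counted once and other rows summed. The kept genes and their shares were counted by row, so a symbol on several rows counts more than once. No test was run, as there is 1 library per condition. Gene locations and types came from GENCODE M21 on GRCm38, a later release than the annotation of the authors, and shared 31-base words from its transcripts. Promoter windows are from RefSeq (GRCm38.p6).

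The members, the wider list, the markers, the treatment response genes and the motifs were chosen with earlier results of these data known. Named were all 10 members, genes of the wider list past 2-fold (at most 4 per condition and direction by size), and the 3 genes nearest in course to each member that spans more than 2-fold, of which 1 is not reported here. Slc7a2, Aldh18a1, Max, Zfp36 in glutamine depletion, Mat2a in oxidative stress, and the hypusine and unfiltered genes were named after their values were seen. Alternatives were pseudocounts of 0.1 and 5 TPM, thresholds of 1.5-fold and 3-fold, a filter at 10 TPM or none, subtraction of the median gene, removal of mitochondrially encoded genes, the median of the other 6 libraries as reference, and protein-coding genes alone. Sums of Amd1 with Amd2 and Amd-ps3, and of Paox with Gm19680, were added after seeing the data, apart from that with Amd2 alone. Only the log2 change, without a pseudocount, and the 2-fold call were tested on simulated data, with planted changes well past that threshold. The other steps were not tested in this way. Scripts ran in Python 3.11.15 with pandas 2.3.3 and numpy 2.4.6, and figures were drawn with matplotlib 3.10.9.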

Additional observations from a re-analysis of the deposited data

How the results depend on the processing

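Each condition has 1 library, so leaving out a replicate was not possible, depth is unknown, and no spread between cultures could be set beside any value. No paired analysis was possible because each condition has 1 library and no test was run. The 6 changes past 2-fold among the 10 genes all stayed past it with a pseudocount of 0.1 TPM, after centring on the median gene and without mitochondrially encoded genes. Under a pseudocount of 5 TPM 5 of 6 stayed, with 0 genes in oxidative stress, where Smox had 0.88. With the median of the other 6 libraries as reference 4 of 6 stayed, with 0 genes in glutamine depletion and in oxidative stress and 1 in hypoxia (Sat1, -1.06). At 1.5-fold the counts were 2 in hypoxia, 5 in ER stress, 2 in osmotic stress and 4 in oxidative stress, and at 3-fold 0 in glutamine depletion, ER stress, oxidative stress and osmotic stress. Signs differed from those reported in 3 of 60 values after centring (Oaz1 and Oaz2 in hypoxia, Paox in oxidative stress), in 1 of 60 without mitochondrially encoded genes (Amd1 in ER stress) and in 7 of 60 with the other reference. With Amd2 and Amd-ps3 added, an alternative chosen after seeing the data, Amd1 in ER stress turned to -0.07, and with Gm19680 added, chosen likewise, Paox in hypoxia turned to -0.03. For the wider list, the counts with 5 TPM were 1 each in glutamine depletion, oxidative and osmotic stress, 1 in osmotic stress after centring, and 1 in hypoxia among genes of at least 10 TPM. At 1.5-fold they were 7, 5, 13, 10 and 6 in glutamine depletion, hypoxia, ER, oxidative and osmotic stress, and at 3-fold 0, 1, 5, 0 and 1. The share of all kept genes past 2-fold was 4.24% in glucose depletion, 6.41% in glutamine depletion, 6.21% in hypoxia, 19.6% in ER stress, 8.78% in oxidative stress and 11.8% in osmotic stress. In the same order it was 2.61%, 3.35%, 3.88%, 11.8%, 4.49% and 5.17% with 5 TPM, 9.70%, 18.1%, 15.3%, 40.2%, 23.5% and 26.1% at 1.5-fold, and 2.45%, 2.95%, 3.10%, 7.20%, 3.88% and 4.96% with no filter. At 3-fold it was 2.88%, 3.59%, 7.69%, 3.90% and 5.02% from glutamine depletion on. Among genes of at least 10 TPM it was 1.79%, 4.04% and 3.48% in the first 3 conditions, 6.71% in osmotic stress and 5.47% in oxidative stress, and among protein-coding genes 1.04%, 3.75% and 2.95% in the first 3 and 5.25% in oxidative stress. The causes were not tested.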

Other observations

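The 10 genes together took 1264 TPM in the control, 1298 in glucose depletion, 1320 in glutamine depletion, 1047 in hypoxia, 1737 in ER stress, 1375 in oxidative stress and 1567 in osmotic stress. Hypoxia was the only library below the control. Synthesis genes made up 37.2% of this sum in the control, 43.7% in glucose depletion, 37.2% in glutamine depletion, 31.5% in hypoxia, 56.7% in ER stress, 31.3% in oxidative stress and 31.9% in osmotic stress. Oaz1 alone made up 40.3% in the control, 47.1% in hypoxia and 23.2% in ER stress. The genes of acetylation and oxidation had their largest shares in the 3-hour treatments, at 20.2% in oxidative stress and 20.8% in osmotic stress, against 12.8% in the control. Most of their summed TPM was Sat1, at 241 of 277 TPM in oxidative stress and 304 of 326 TPM in osmotic stress. Smox was highest in ER stress and Paox lowest in osmotic stress. Treatment time and kind of stress cannot be told apart here. In ER stress Odc1 and Srm were at 405 and 483 of the 984 TPM of synthesis genes, while Amd1 and Sms were near their control levels.

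The pseudogene Amd-ps3 was listed at 7.90 TPM in the control, 4.05 in glucose depletion, 5.09 in glutamine depletion, 0 in hypoxia, 2.47 in ER stress, 3.84 in oxidative stress and 17.8 in osmotic stress. Its highest library was also the highest of Amd1, with which it shares sequence, and whether its reads belong to it was not tested.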
